A study of Mus musculus with 89 samples.

Results

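The nuclear genes for the subunits of the oxidative phosphorylation machinery were followed in RNA-seq of mouse embryonic stem cells, with and without the dTAG molecule. Members were the rows of the deposited count table whose symbol begins with Nduf and a subunit letter, Sdh, Uqcr, Cox with a number from 4 to 8, or Atp5. This rule uses names only and found 83 of the 26276 genes with a symbol: 36 of complex I, 4 of complex II, 8 of complex III, 18 of complex IV and 17 of complex V. It also takes in a few genes that are not core subunits, such as Cox7a2l, a factor that joins complexes into supercomplexes, and Atp5s, which RefSeq names Dmac2l. A count of genes by complex depends on this name rule, since subunits under other names, such as Cyc1 and Ndufab1, fall outside it.

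Oxidative phosphorylation takes place in the inner mitochondrial membrane. Complexes I and II pass electrons from NADH and succinate to ubiquinone, complex III passes them on to cytochrome c, complex IV passes them to oxygen, and complex V uses the resulting proton gradient to make ATP. Most subunits are encoded in the nucleus and imported, while the mitochondrial genome encodes core subunits of complexes I, III, IV and V and none of complex II. Several complex IV subunits have a common form and a form used mainly in muscle, lung or testis. Embryonic stem cells in the naive state use oxidative phosphorylation alongside glycolysis.

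The libraries came from V6.5 cells, a mouse embryonic stem cell line, grown with LIF and inhibitors of MEK and GSK3. In all 6 libraries the cells carried the genotype H2afz-FKBP-V, in which the histone variant H2A.Z.1 bears a tag that lets dTAG direct the protein to degradation. There were 3 libraries labelled control and 3 labelled dTAG, and the comparison asks how transcript levels differ when H2A.Z.1 is depleted. No source used here gives how long dTAG was applied before RNA was taken, or whether the tagged cells were 1 clone. Separate cultures are not stated either, so every p-value refers to the spread between these libraries, which may be technical.

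The libraries differed in depth and content, and dTAG replicates 2 and 3 stood apart. Total counts were 14427884 to 16033011 in the controls. With dTAG they were 13214351, 2284068 and 2121183 in replicates 1, 2 and 3. Of 1430 olfactory and vomeronasal receptor genes, 10.8% to 17.6% had a count in the controls, and 23.1%, 71.3% and 97.1% did in the successive dTAG replicates. The 10 embryonic stem cell markers, among them Pou5f1, Nanog and Sox2, were all detected in every library, with a summed level of 2861 to 2987 CPM in the controls and 3077, 1835 and 546 CPM with dTAG. CPM here scales each library to 1000000 counts in genes with a symbol. The 12 muscle markers summed to 115 to 131 CPM in the controls and to 143, 533 and 1538 CPM in the dTAG libraries. Most of these sums was Ttn, at 84.0, 88.8 and 97.7 CPM in the controls and 100, 357 and 1051 CPM with dTAG. Tnni3 lay within the control range in every dTAG library. The 10 fibroblast markers summed to 25.5 to 36.9 CPM in the controls and to 25.0, 130 and 445 CPM, and the 10 testis markers to 3.34 to 4.86 CPM and to 3.33, 34.2 and 143 CPM. In the controls and dTAG replicate 1, 4 of the fibroblast, 1 to 4 of the muscle and 5 to 8 of the testis markers were at 0, whereas in dTAG replicate 3 none of these markers was at 0. The H2afz transcript stood at 78.8, 81.9 and 95.7 CPM in the controls, against 107, 56.3 and 35.9 CPM with dTAG, and since dTAG acts on the protein this level does not check the depletion. What part these differences between libraries had in the results was not tested, so values are given for each library and with and without the libraries that stood apart.

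Promoter sequence was available for 68 of the 83 members, in 73 RefSeq windows of assembly GRCm38.p6 that run from 250 bases before to 50 bases after the transcription start. Nuclear subunit genes are textbook targets of the factors NRF1 and GABP, the latter a member of the ETS family, and their promoters often lack a TATA box. The NRF1 word, GCGCA followed by any base and then GCGC, searched like the others on both strands, was found in 18 of the 73 windows (24.7%), against 4.60% of 32851 windows of all genes. The ETS word CCGGAAG was found in 16 windows (21.9%), against 8.86% of all windows. The YY1 word AAGATGGCG was found in 7 windows (9.59%), against 1.40%, and the TATA word TATAAA in 8 windows (11.0%), against 13.6%. No member window had overlapping matches of different words. A match describes letters in the window and is not evidence that a factor binds there. The 130 bases before the start are shown for 2 genes of complex II, whose share of member counts is described further on, and for common and tissue-specific isoforms of complex IV; they were chosen after the search had been seen. Capitals mark matches to the NRF1 word or to the ETS word on either strand, and each sequence reads 5′ to 3′ on the strand of its gene, with its RefSeq position in GRCm38.p6.

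Sdha, chr13:74350241-74350370, minus strand: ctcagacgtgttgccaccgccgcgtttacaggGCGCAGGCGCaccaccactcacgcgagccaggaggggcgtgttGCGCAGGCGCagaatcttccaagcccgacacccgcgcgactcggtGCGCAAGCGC
Sdhd, chr9:50603850-50603979, minus strand: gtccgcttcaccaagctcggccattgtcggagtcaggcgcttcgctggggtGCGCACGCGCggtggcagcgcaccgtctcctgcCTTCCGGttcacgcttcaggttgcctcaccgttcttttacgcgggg
Cox6a1, chr5:115348959-115349088, minus strand: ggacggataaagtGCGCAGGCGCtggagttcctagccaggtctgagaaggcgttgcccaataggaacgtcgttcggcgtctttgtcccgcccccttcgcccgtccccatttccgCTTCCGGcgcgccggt
Cox6b1, chr7:30626115-30626244, minus strand: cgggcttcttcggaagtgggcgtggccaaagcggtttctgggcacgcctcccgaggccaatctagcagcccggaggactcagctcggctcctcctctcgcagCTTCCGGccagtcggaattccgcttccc
Cox6b2, chr7:4753095-4753224, minus strand: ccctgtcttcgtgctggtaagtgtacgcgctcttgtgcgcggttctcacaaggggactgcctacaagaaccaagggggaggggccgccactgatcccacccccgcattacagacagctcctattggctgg
Cox7a2, chr9:79759854-79759983, minus strand: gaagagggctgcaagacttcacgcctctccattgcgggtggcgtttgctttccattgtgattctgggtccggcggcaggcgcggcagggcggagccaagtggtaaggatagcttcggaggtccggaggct
Cox7a1, chr7:30184041-30184170, plus strand: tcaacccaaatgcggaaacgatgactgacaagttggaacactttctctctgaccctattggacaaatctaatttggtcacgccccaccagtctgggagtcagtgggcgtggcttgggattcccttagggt
Cox8b, chr7:140900447-140900576, minus strand: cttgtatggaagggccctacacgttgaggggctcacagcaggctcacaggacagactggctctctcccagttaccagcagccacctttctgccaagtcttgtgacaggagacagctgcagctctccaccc

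Of these, Sdha held the NRF1 word 3 times, Sdhd and Cox6a1 held both words, Cox6b1 held the ETS word, and no match was found in this stretch of Cox6b2, Cox7a2, Cox7a1 or Cox8b. The Cox7a2 stretch lies before a start inside the RefSeq gene span (chr9:79755241-79771422). Sdha encodes the flavoprotein subunit of succinate dehydrogenase and Sdhd a membrane anchor, and the Cox6b, Cox7a and Cox8 proteins are small subunits around the catalytic core of cytochrome c oxidase.

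In the controls the members varied little between libraries. The 83 genes took 0.689%, 0.670% and 0.678% of all counts in the 3 controls. Of the members, 76 had a mean of at least 10 CPM, and their median SD between controls was 0.11 on the log2(CPM + 1) scale, against 0.17 over the 8876 genes at that level. The others were Ndufb3, just below that level at 9.86 ± 1.38 CPM (SD, n = 3), Atp5s, and the tissue-specific forms Cox4i2, Cox6a2, Cox7b2, Cox8b and Cox8c. The median member had 752, 753 and 681 counts in the controls and 688 in dTAG replicate 1, but only 71 and 22 in dTAG replicates 2 and 3. A count of 0 allows up to 3 counts, or 0.192 to 0.232 CPM in the controls and dTAG replicate 1, 1.41 CPM in dTAG replicate 2 and 1.66 CPM in dTAG replicate 3.

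dTAG replicate 1 gave values close to the controls in these genes, and dTAG replicates 2 and 3 held fewer of their counts. The summed share was 0.705%, 0.426% and 0.148% in the successive dTAG replicates, so the first lay above the control range and the others below it. The difference between the groups did not pass the test (two-sided exact permutation test, p = 0.4, where the smallest p that 3 against 3 libraries can give is 0.1). The place of dTAG replicate 1 depended on the denominator. Without the ribosomal RNA row Rn45s and mitochondrially encoded RNA, the share was 0.877%, 0.902% and 0.896% in the controls. With dTAG it was then 0.900%, 0.535% and 0.149%, so dTAG replicate 1 lay within the controls. In bulk RNA, fewer cells of a type and less RNA per cell cannot be told apart, and the count table gives shares, not amounts per cell. Over the 76 members at 10 CPM or more, the median log2 ratio of CPM + 1 to the control mean was 0.03, -0.66 and -2.16 in these replicates. Over all 8876 genes at this level the medians were 0.03, -0.04 and 0.13. The 10 embryonic stem cell markers, all at this level, had medians of 0.05, -0.66 and -2.03. A fall of this size was thus not particular to the members. Of the 76 members, 0, 16 and 57 were more than 2-fold lower in dTAG replicates 1, 2 and 3, where the background over all 8876 genes was 0.27%, 3.88% and 27.5%. No member at this level was more than 2-fold higher in dTAG replicate 1, 2 or 3, where the background was 0.0789%, 10.6% and 29.8%.

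**Figure D1:**
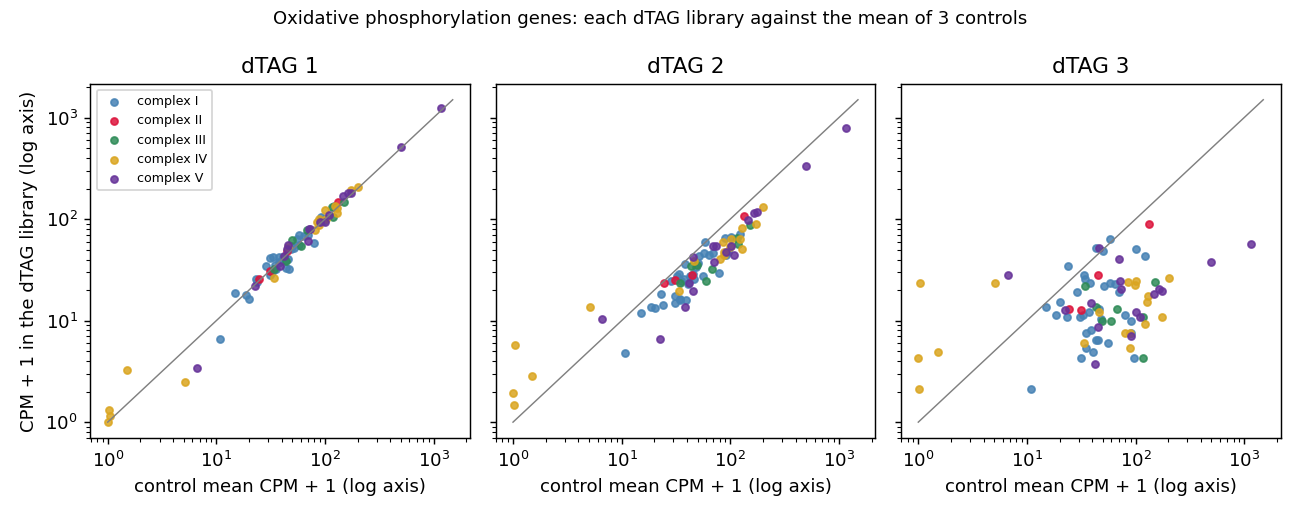
Level of each of the 83 genes in a dTAG library (vertical, CPM + 1, log axis) against the mean of the 3 controls (horizontal, CPM + 1, log axis), coloured by complex, with a line of equality. Points follow the line in dTAG replicate 1, lie mostly below it in dTAG replicate 2, and spread into a cloud in dTAG replicate 3.

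The order of the members by level was kept in dTAG replicates 1 and 2 and was largely lost in dTAG replicate 3. Across the 83 genes, Spearman's rho between pairs of controls was 0.969 to 0.977, and between the control mean and the dTAG libraries it was 0.981, 0.944 and 0.218. Over the 25668 genes with a count in any library, rho with the control mean was 0.958, 0.847 and 0.558. These correlations are across genes, which are not independent and share libraries and depth, and they carry no test.

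Over all 6 libraries no member was called. Of the 83 members 80 passed the filter on low counts, and 0 were lower and 0 higher at an adjusted p under 0.05 (edgeR quasi-likelihood test, adjusted by the Benjamini-Hochberg method), where the background over 18116 tested genes was 0% in either direction, with 4202 genes and 0 members at an unadjusted p under 0.05. DESeq2 called 0 members lower (background 0.0623%) and 1, Cox6a2, higher (background 19.8%). The 3 members that did not pass the filter were Cox6a2, Cox7b2 and Cox8b. Of the 80, 77 had a log2 fold change below 0, as did 46.1% of all tested genes. The members' median was -1.02 and that of all tested genes 0.16, a difference of -1.18. Relative to all genes, the medians of complexes I to V were -1.12, -0.96, -1.20, -1.23 and -1.20. With scaling by library totals alone the median of all genes moved to 1.20 and that of the members to -0.61, so fold changes are best read against the median of all genes.

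The members' difference from all genes in the 6-library fit was much smaller with dTAG replicate 1 alone. With dTAG replicate 1 alone against the controls, 0 of 80 members were called in either direction, where the background was 0.0276% lower and 0.0606% higher over 18143 genes (edgeR, with the lone library assumed to vary like the controls). The members' median was then -0.04 relative to all genes. Of the 80, 50 were below 0, a larger share than the 51.9% of all genes. Without dTAG replicate 1, 70 of 81 tested members were called lower, against a background of 19.8% over 22093 genes. In the same fit 1 was called higher, against a background of 40%. The median was then -3.05 relative to all genes, from -2.37 for the members and 0.68 for all genes. Without dTAG replicate 3, 0 of 80 members were called, with a background of 0% in each direction and 5 members at an unadjusted p under 0.05 (Ndufb3, Ndufa7, Ndufs3, Cox7a1 and Ndufb7). These make 6.25% of the members, against 13.7% of all genes tested, and the relative median was -0.58. These fits share the 3 control libraries.

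**Figure D2:**
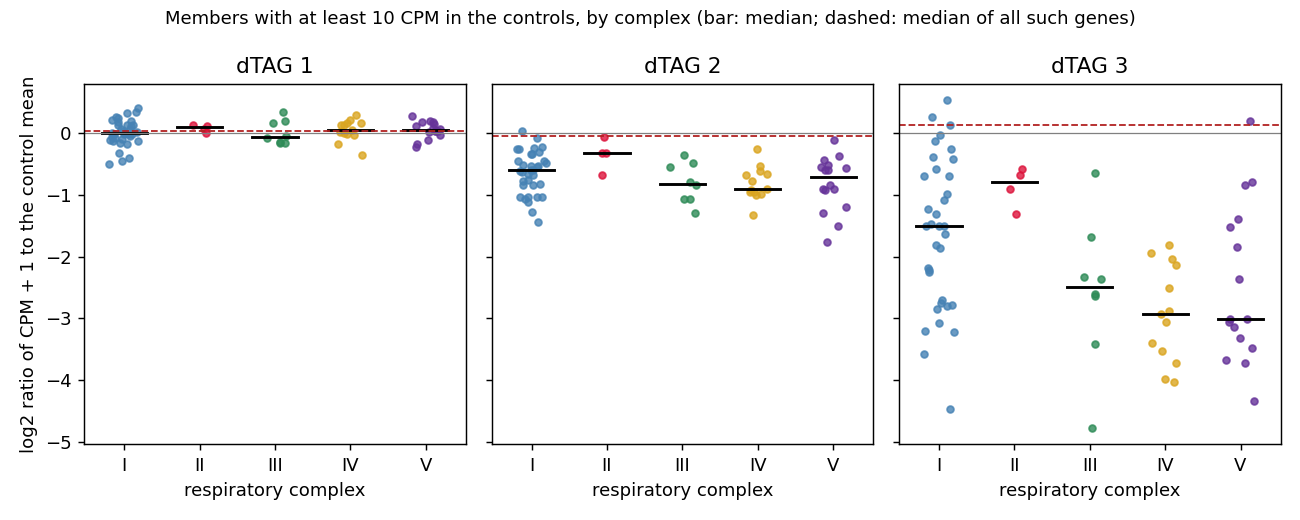
Log2 ratio of CPM + 1 to the control mean (vertical) for the 76 members with at least 10 CPM in the controls, by complex (horizontal), in each dTAG library; black bars are complex medians and the dashed line is the median of all 8876 genes at that level. The members centre on 0 in dTAG replicate 1, and in dTAG replicate 3 complex II lies nearest to 0 and complexes III, IV and V lie lowest.

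Complex I, the NADH dehydrogenase, held the members with the smallest p over all 6 libraries. Ndufs3, a core subunit of the peripheral arm (gene at chr2:90894627-90904721 in GRCm38.p6), stood at 46.5, 41.0 and 48.3 CPM in the controls, against 31.6, 24.9 and 12.1 CPM in the successive dTAG replicates. All dTAG libraries lay below all controls, and the log2 fold change was -1.42 (SE 0.64, adjusted p = 0.227, edgeR). Ndufb3, an accessory subunit of the membrane arm, stood at 11.4, 8.69 and 9.51 CPM in the controls, against 5.66, 3.75 and 1.10 CPM with dTAG, the last from 2 counts. The groups again did not overlap, and the log2 fold change was -1.80 (SE 0.82, adjusted p = 0.238, edgeR). Ndufb6, another accessory subunit of the membrane arm, stood at 17.4, 15.8 and 24.1 CPM in the controls, against 15.2, 12.2 and 14.3 CPM with dTAG, lower in each dTAG library than in any control (log2 fold change -1.07, SE 0.48, edgeR adjusted p = 0.231).

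In dTAG replicate 1 the spread among complex I members was small and none passed the test. Among members at 10 CPM or more, the lowest ratios there were those of Ndufs3 (log2 fold change -0.60, SE 0.22, adjusted p = 0.673, edgeR) and of Ndufa7, another accessory subunit. Ndufa7 stood at 84.7, 80.6 and 69.3 CPM in the controls, against 57.0, 28.1 and 10.5 CPM with dTAG (-0.54 in dTAG replicate 1, SE 0.18, edgeR adjusted p = 0.555). Ndufb7 was the only other member at an unadjusted p under 0.05 there, with 37.4, 49.4 and 41.4 CPM in the controls, against 32.0, 26.7 and 5.52 CPM with dTAG. These 3 of 80 members make 3.75%, against 5.74% of all genes tested. At the other end stood Ndufa2, an accessory subunit, with 26.6, 29.9 and 33.5 CPM in the controls and 40.4 CPM in dTAG replicate 1, followed by 14.1 and 9.93 CPM. Its value in dTAG replicate 1 lay above the controls and those in the other dTAG libraries below them.

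Complex I had the widest range of the 5 complexes in dTAG replicate 3. Its 35 members with at least 10 CPM in the controls had a median log2 ratio of 0.01, -0.60 and -1.51 in the dTAG libraries, and in dTAG replicate 3 they ran from -4.47 to 0.54. Ndufb9, at the low end, stood at 104, 88.9 and 91.7 CPM in the controls, against 94.1, 46.0 and 3.31 CPM with dTAG. Ndufb2, at the high end, stood at 23.4, 26.5 and 18.7 CPM in the controls, against 22.8, 13.1 and 33.7 CPM with dTAG. Ndufb5 stood at 45.4, 39.7 and 40.9 CPM in the controls, against 38.4, 26.7 and 50.8 CPM with dTAG. Ndufa13 stood at 54.4, 46.3 and 69.3 CPM in the controls, against 54.6, 45.5 and 62.3 CPM with dTAG. In dTAG replicate 2 these 3 genes lay below all controls, and in dTAG replicate 3 Ndufb2 and Ndufb5 lay above them and Ndufa13 within them. Ndufv3, at the NADH-oxidising tip, stood at 109, 97.0 and 93.9 CPM in the controls, against 100, 65.7 and 50.2 CPM with dTAG. Ndufa4, first assigned to complex I and now placed with complex IV, is counted here with complex I by its name, and stood at 41.8, 44.0 and 48.0 CPM in the controls, against 39.4, 27.7 and 5.52 CPM with dTAG. All 36 complex I members were called lower without dTAG replicate 1, against a background of 19.8%. In that fit the TMM factors were 1.24 and 2.63 in dTAG replicates 2 and 3 and 0.646 to 0.719 in the controls. Ndufb2, Ndufb5 and Ndufa13 were thus called lower although their CPM in dTAG replicate 3 lay above the control mean, with log2 fold changes of -1.51, -1.60 and -1.48.

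Complex II, succinate dehydrogenase, had the smallest differences in dTAG replicates 2 and 3. Its 4 members had median log2 ratios of 0.09, -0.32 and -0.79 in the dTAG libraries. Sdha, the succinate-oxidising subunit whose promoter stretch holds 3 NRF1 words, stood at 139, 122 and 135 CPM in the controls, against 145, 106 and 87.7 CPM with dTAG. Sdhb, the iron-sulfur subunit, stood at 49.4, 48.1 and 34.1 CPM in the controls, against 47.6, 27.2 and 27.0 CPM with dTAG. Sdhc, a membrane anchor, stood at 22.2, 25.6 and 23.1 CPM in the controls, against 24.9, 22.5 and 12.1 CPM with dTAG. Sdhd, the other anchor, stood at 28.3, 30.5 and 31.7 CPM in the controls, against 30.1, 23.9 and 11.6 CPM with dTAG. For Sdhb the values in dTAG replicates 2 and 3 lay below the controls, and dTAG replicate 1 lay within them. Without dTAG replicate 1, 3 of the 4 were called lower (background 19.8%) and Sdha was not (log2 fold change -1.72, SE 0.71, edgeR adjusted p = 0.0537).

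Complex III, the cytochrome bc1 complex, had median log2 ratios of -0.06, -0.82 and -2.49 over its 8 members. Uqcrb, a ubiquinone-binding subunit (chr13:66900576-66905350), stood at 118, 114 and 120 CPM in the controls, against 104, 55.4 and 3.31 CPM with dTAG. Every dTAG library lay below the controls, and the last value rests on 6 counts (log2 fold change -1.36, SE 1.13, edgeR adjusted p = 0.458). Uqcrc1 and Uqcrc2, the large core proteins, differed in dTAG replicate 1: Uqcrc1 stood at 146, 128 and 176 CPM in the controls and 145 CPM there, within the controls. Uqcrc2 stood at 55.5, 45.2 and 44.7 CPM in the controls and 61.9 CPM there, above them, though its log2 fold change of 0.27 (SE 0.20) did not pass the test (edgeR adjusted p = 0.973). In dTAG replicates 2 and 3 Uqcrc1 stood at 85.8 and 23.2 CPM and Uqcrc2 at 34.2 and 8.83 CPM, all below the controls. Uqcr11, a small subunit, stood at 28.6, 38.8 and 32.4 CPM in the controls, against 31.6, 22.5 and 21.0 CPM with dTAG. All 8 members were called lower without dTAG replicate 1 (background 19.8%).

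Complex IV, cytochrome c oxidase, has common subunits and tissue-specific forms, which are described separately further on. Its 13 members with at least 10 CPM had median log2 ratios of 0.05, -0.90 and -2.94. Cox4i1, the common form of the largest nuclear-encoded subunit, stood at 201, 192 and 209 CPM in the controls, against 207, 131 and 25.4 CPM with dTAG. Cox6c stood at 167, 169 and 182 CPM in the controls, against 193, 88.7 and 9.93 CPM with dTAG. Both were inside or above the controls in dTAG replicate 1 and below them in dTAG replicates 2 and 3. Cox8a stood at 124, 132 and 124 CPM in the controls, against 128, 50.2 and 14.3 CPM with dTAG, and Cox7b at 127, 132 and 108 CPM in the controls, against 135, 62.9 and 8.28 CPM with dTAG. Cox7a2l, the supercomplex factor, stood at 49.1, 44.6 and 41.6 CPM in the controls, against 52.7, 37.5 and 11.0 CPM with dTAG. Without dTAG replicate 1, 12 of 16 tested members were called lower (background 19.8%), and Cox4i1 was not (edgeR adjusted p = 0.0611).

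Complex V, ATP synthase, supplied 42.0%, 41.9% and 41.9% of the member counts in the controls. Atp5b, the catalytic beta subunit (chr10:128083307-128090388), stood at 1186, 1136 and 1170 CPM in the controls, against 1231, 795 and 56.3 CPM with dTAG. Atp5a1, the alpha subunit that alternates with beta in the catalytic head, stood at 511, 510 and 469 CPM in the controls, against 518, 334 and 36.4 CPM with dTAG. Both were above all controls in dTAG replicate 1 and below all of them in dTAG replicates 2 and 3. Over 6 libraries the log2 fold change of Atp5b was -1.03 (SE 1.49, edgeR adjusted p = 0.616) and that of Atp5a1 was -1.04 (SE 1.20, edgeR adjusted p = 0.539). Without dTAG replicate 1, 11 of 17 members were called lower (background 19.8%), and Atp5b (edgeR adjusted p = 0.273) and Atp5a1 (0.145) were not. Atp5j2, the f subunit of the membrane part, lay near the controls in CPM, with 45.8, 39.4 and 49.0 CPM in the controls, against 54.5, 41.3 and 51.3 CPM with dTAG. It was nonetheless among the 11 called lower on the TMM scale without dTAG replicate 1 (log2 fold change -1.33, SE 0.43, edgeR adjusted p = 0.0208). Atp5s, a factor outside the enzyme core, stood at 7.72, 2.24 and 6.95 CPM in the controls, against 2.40, 9.38 and 27.0 CPM with dTAG, and the sign of its fold change depended on the setting.

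Atp5g1, Atp5g2 and Atp5g3 encode the same mature c subunit of the rotor ring with different import sequences, so their shares compare the sources of a single protein. Atp5g1 gave 35.3%, 31.3% and 31.2% of the counts of the 3 genes in the controls and 35.8%, 39.7% and 50.0% in the dTAG libraries. Atp5g3 gave 52.1%, 51.1% and 46.7% in the controls and 49.2%, 46.7% and 20.9%. Atp5g2 gave 12.5%, 17.6% and 22.1% and then 15.0%, 13.6% and 29.1%. The share of Atp5g1 was above all controls in every dTAG library (two-sided exact permutation test, p = 0.1, adjusted p = 0.2 over 10 shares), by only 0.457 percentage points in dTAG replicate 1. Shares are of counts, not corrected for transcript length, and no source used here says how the counting treated near-identical copies.

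**Figure D3:**
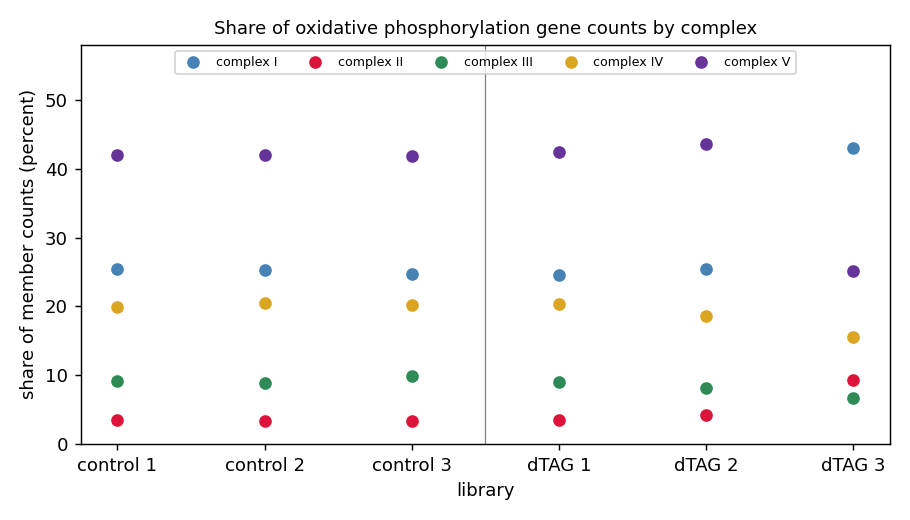
Share of all member counts (vertical, percent) taken by each complex in each library (horizontal), 1 point per library and complex. The 5 shares are close among the controls and dTAG replicate 1, and in dTAG replicate 3 complex I takes 43.1% and complex V 25.2%.

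The makeup of the member counts by complex, which does not depend on scaling between libraries, was close to the controls in dTAG replicate 1. The shares of complexes I, II and V nonetheless lay outside the control range there. In dTAG replicate 2 the shares of complexes II, III, IV and V lay outside it. Complex I took 25.5%, 25.3% and 24.7% of member counts in the controls and 24.6%, 25.4% and 43.1% in the dTAG libraries. Complex V took 42.4%, 43.5% and 25.2% in the dTAG libraries. Single genes weigh on these shares. Atp5b held 16893 of 98075 member counts in control replicate 1 and 102 of 2675 in dTAG replicate 3, and Sdha held 1986 and 159. The share of complex II was higher in each dTAG library than in any control, at 3.48%, 3.37% and 3.31% in the controls and 3.51%, 4.21% and 9.38% in the dTAG libraries (two-sided exact permutation test, p = 0.1, adjusted p = 0.5 over 5 complexes). In dTAG replicate 1 it exceeded the highest control by 0.0380 percentage points. Complex III took 9.14%, 8.94% and 9.89% in the controls and 9.10%, 8.22% and 6.77%, and complex IV took 19.9%, 20.5% and 20.3% and then 20.4%, 18.6% and 15.6%. Neither difference passed the test (adjusted p = 0.5 for both, same exact permutation test).

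The tissue-specific isoforms of complex IV were set against their common forms within each library, as shares of counts with 95% Wilson intervals that cover counting error only. The control cells held Cox6b2, known as the testis form of Cox6b (chr7:4751792-4753094), beside the common Cox6b1. Cox6b2 stood at 87.8, 86.2 and 78.6 CPM in the controls and gave 51.0%, 47.8% and 48.6% of the counts of the pair. In the dTAG libraries it stood at 92.4, 58.2 and 23.2 CPM and gave 51.4% (49.4% to 53.4%), 57.1% (50.5% to 63.5%) and 77.8% (65.1% to 86.8%). Its level thus lay above the controls in dTAG replicate 1 and below them in the other dTAG libraries, while its share lay above the controls in all 3 (two-sided exact permutation test, p = 0.1, adjusted p = 0.2 over 10 shares). Cox6b1 stood at 84.3, 94.2 and 83.2 CPM in the controls, against 87.3, 43.6 and 6.62 CPM with dTAG. The testis markers listed above summed to at most 4.86 CPM in the controls. Where the Cox6b2 transcript there came from was not tested.

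Cox7a1, the heart and muscle form of Cox7a, was also present in the controls. It stood at 39.9, 23.4 and 35.3 CPM there, against 25.4, 18.8 and 4.97 CPM with dTAG, and gave 33.9%, 22.2% and 30.9% of the counts of Cox7a1 and Cox7a2 in the controls and 24.7%, 32.3% and 42.9% in the dTAG libraries. These shares overlapped between the groups, and the interval of the last, on 21 counts, was 24.5% to 63.5%. Cox7a2, the common form, stood at 77.7, 81.9 and 78.9 CPM in the controls, against 77.6, 39.4 and 6.62 CPM with dTAG.

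The remaining tissue-specific forms were low in the controls, with at most 1 count in any of them for Cox6a2, Cox7b2 and Cox8b. Cox6a2, the heart and muscle form of Cox6a, had 0, 1 and 1 counts in the controls and 2, 10 and 41 in the dTAG libraries, the last equal to 22.6 CPM and to 51.3% of Cox6a counts (40.5% to 61.9%). Its common partner Cox6a1 stood at 93.9, 100 and 101 CPM in the controls, against 121, 51.6 and 21.5 CPM with dTAG. Cox8b, a heart and muscle form, had 0 counts in the controls and in dTAG replicate 1 and then 2 and 6 counts. Cox4i2, the lung form of Cox4i, stood at 5.83, 2.68 and 3.83 CPM in the controls, against 1.47, 12.7 and 22.6 CPM with dTAG, or 0.705%, 8.79% and 47.1% of Cox4i counts. Cox4i2 was thus below the controls in dTAG replicate 1 and above them in the other dTAG libraries, and the sign of its fold change depended on the setting. Cox8c, a testis form, stood at 0, 0.319 and 1.21 CPM in the controls, against 2.25, 1.88 and 3.86 CPM with dTAG, and Cox7b2 gave 0, 0 and 1 counts and then 4, 1 and 2 counts. Muscle, fibroblast and testis markers were highest in these same libraries, and their part in the isoform values was not tested. Cox6a2 was the member called higher without dTAG replicate 1 (edgeR adjusted p = 0.00222) and by DESeq2 over 6 libraries (DESeq2 adjusted p = 0.00663). It passed the filter without dTAG replicate 1 only through its counts in dTAG replicates 2 and 3.

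**Figure D4:**
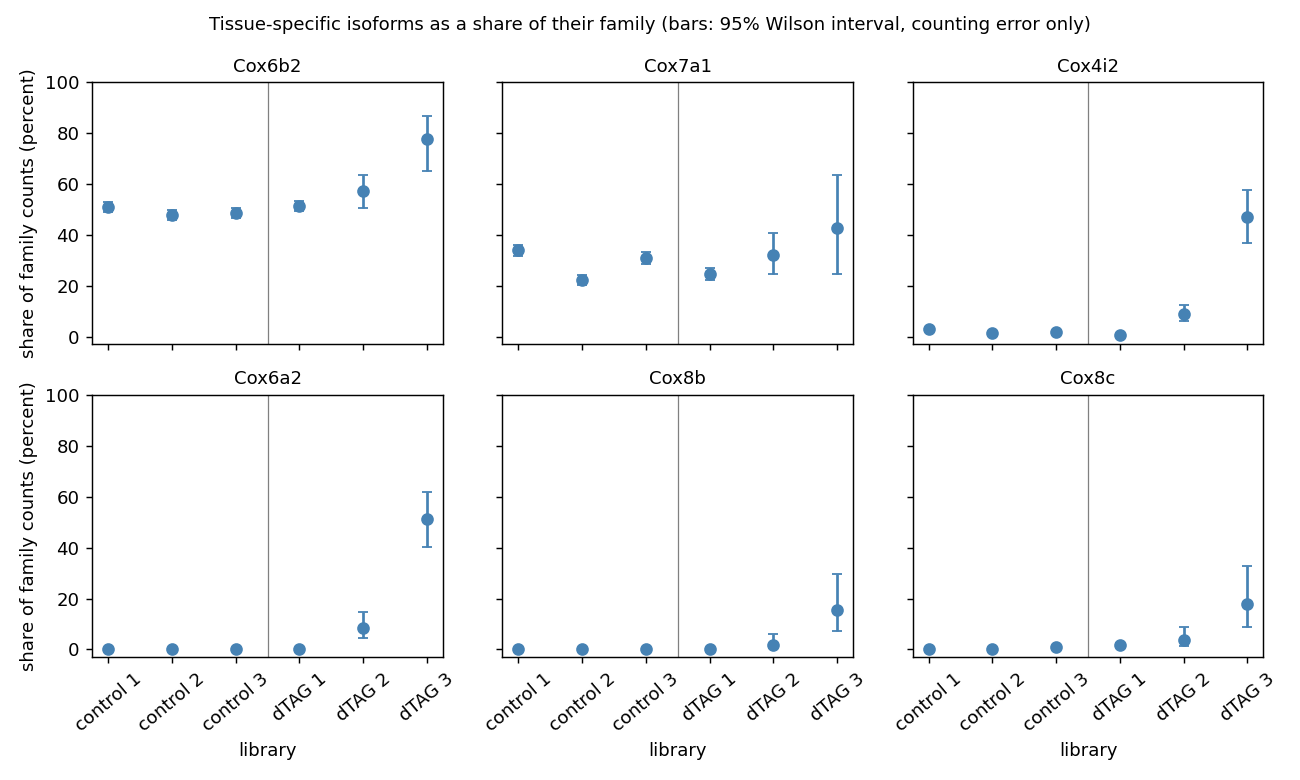
Counts of 6 tissue-specific complex IV isoforms as a share of their family (vertical, percent) in each library (horizontal); points are single libraries and bars are 95% Wilson intervals for counting error only. Cox6b2 is near 50% in the controls, Cox7a1 lies between 22.2% and 33.9%, and the other forms are at most 2.81% in the controls and highest in dTAG replicate 3.

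Members that lay outside the control range in every dTAG library were a small set. In dTAG replicate 1 alone, 16 of the 80 tested members lay below all controls and 29 above them, or 20% and 36.3%, beside 16.9% and 34.2% of all tested genes, so the members were close to the background there. In dTAG replicate 2, 72 lay below (background 22.4%) and 3 above (background 63.4%), and in dTAG replicate 3, 71 lay below (background 22.4%) and 6 above (background 72.3%). In all 3 dTAG libraries together 14 lay below (17.5%, background 3.22%) and 1, Cox8c, lay above (background 23.9%). The 14 were Ndufa1, Ndufa4, Ndufa7, Ndufb3, Ndufb4, Ndufb6, Ndufb7, Ndufs3 and Ndufs6 of complex I, Uqcrb and Uqcrfs1 of complex III, Cox5b and Cox7a2 of complex IV, and Atp5d of complex V. On TMM-scaled values 18 members lay below in all 3 (background 10.4%) and 0 above (background 17.5%). On that scale 77 members lay below in dTAG replicate 2 (background 41.2%) and 77 in dTAG replicate 3 (background 43.5%), while 1 and 2 lay above (background 44.6% and 47.8%). In dTAG replicate 1, 19 lay below (background 20.8%) and 21 above (background 30.3%). These are counts of values outside a range, with no test.

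Genes that serve the same machinery without being named as subunits were less uniform. Of 49 genes that serve the assembly of the complexes, not all of them chaperones, all were tested and 0 were called over 6 libraries. Their median was -0.58 relative to all genes, and -0.16 with dTAG replicate 1 alone against the controls. Their summed level was 827, 815 and 838 CPM in the controls, against 812, 798 and 1075 CPM with dTAG, highest in dTAG replicate 3. Without dTAG replicate 1, 21 of the 49 were called lower (background 19.8%) and 0 higher (background 40%), on the TMM scale, whereas the summed level is in CPM. Lrpprc, which stabilises mitochondrial messenger RNAs, and Cox17, a copper chaperone of complex IV, are examples. Lrpprc stood at 131, 143 and 157 CPM in the controls, against 135, 107 and 44.7 CPM with dTAG. Cox17 stood at 90.0, 77.0 and 84.9 CPM in the controls, against 76.2, 54.9 and 7.72 CPM with dTAG, below the controls in each dTAG library.

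The tricarboxylic acid cycle feeds electrons to complexes I and II. Its list, which also takes in the pyruvate dehydrogenase genes Pdha1, Pdhb, Dlat and Dld, had a relative median of -1.08 over 17 tested genes. Of these, 0 were called over 6 libraries and 11 were called lower without dTAG replicate 1 (background 19.8%). Mdh2, the mitochondrial malate dehydrogenase, stood at 154, 170 and 164 CPM in the controls, against 162, 106 and 19.3 CPM with dTAG. Its log2 ratio of -3.01 in dTAG replicate 3 was the lowest of the 17. The median log2 ratio of the list was -0.01, -0.44 and -1.15 in the dTAG libraries. Of the 13 regulators listed, among them Nrf1, Gabpa and Tfam, 12 were tested and 0 called, with a relative median of -0.85. Without dTAG replicate 1, 4 of 13 were called lower (background 19.8%) and 2 higher (background 40%). Gabpa, the DNA-binding subunit of GABP, stood at 131, 123 and 136 CPM in the controls, against 129, 107 and 33.1 CPM with dTAG. Nrf1 varied less, at 61.6, 54.8 and 52.9 CPM in the controls, against 55.8, 50.7 and 46.9 CPM with dTAG. Among the coactivators, Pprc1 stood at 124, 117 and 114 CPM in the controls, against 128, 120 and 109 CPM with dTAG. Ppargc1a stood at 0.421, 0 and 0.284 CPM in the controls, against 0.232, 7.51 and 33.1 CPM with dTAG. Ppargc1b stood at 3.02, 2.49 and 4.61 CPM in the controls, against 3.72, 29.6 and 106 CPM with dTAG. The values of Ppargc1a and Ppargc1b in dTAG replicates 2 and 3 thus lay above all controls, and those in dTAG replicate 1 within them. Among members at 10 CPM or more, 17 held the NRF1 word and 47 did not. Their median log2 ratios were 0.04 against 0.01 in dTAG replicate 1, -0.59 against -0.65 in dTAG replicate 2 and -2.19 against -1.86 in dTAG replicate 3.

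The subunits and carriers outside the name rule split. Cycs, the cytochrome c that carries electrons from complex III to IV, stood at 96.5, 79.5 and 74.4 CPM in the controls, against 93.0, 44.1 and 15.4 CPM with dTAG. Atpif1, the inhibitor of ATP synthase, stood at 146, 155 and 145 CPM in the controls, against 159, 82.6 and 11.6 CPM with dTAG. Cyc1, the cytochrome c1 subunit of complex III, instead stood at 43.5, 29.6 and 45.3 CPM in the controls, against 43.8, 49.3 and 56.3 CPM with dTAG, above the controls in dTAG replicates 2 and 3. Of the 7 in the table, 0 were called over 6 libraries and 5 were called lower without dTAG replicate 1 (background 19.8%).

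The 13 mitochondrially encoded subunits kept pace with the nuclear ones in dTAG replicates 1 and 2 but not in dTAG replicate 3. They took 2.95%, 2.70% and 2.66% of counts in the controls and 2.70%, 1.80% and 0.0647% in the dTAG libraries. COX1, the catalytic core of complex IV, stood at 8788, 7971 and 8110 CPM in the controls, against 7954, 5490 and 181 CPM with dTAG. ATP6, the proton channel subunit of complex V, stood at 6121, 5767 and 5594 CPM in the controls, against 5561, 3934 and 131 CPM with dTAG. Per count in the 83 nuclear genes there were 4.29, 4.03 and 3.93 mitochondrially encoded counts in the controls and 3.83, 4.23 and 0.439 in the dTAG libraries. The ratio lay just below the controls in dTAG replicate 1, within them in dTAG replicate 2 and far below in dTAG replicate 3. The difference between the groups did not pass the test (two-sided exact permutation test, p = 0.4). Mitochondrial ribosomal RNA took 7.13%, 6.84% and 6.93% of counts in the controls, against 6.94%, 4.94% and 0.165% with dTAG. The ribosomal RNA row Rn45s took 11.4%, 16.2% and 14.7%, against 12.1%, 13.7% and 0.604%. What part this RNA content had in the ratio was not tested. None of the 13 mitochondrially encoded subunits was called over 6 libraries (edgeR). Their relative median was -1.30 there and -0.09 with dTAG replicate 1 alone. Without dTAG replicate 1, 2 of the 13 were called lower (background 19.8%) and 0 higher (background 40%), although their relative median was then -3.13.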

How the data were processed

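The table the authors deposited holds raw counts, whole numbers per gene and library, for 27179 features, of which 903 had no symbol. Those features stayed out of library sizes and tests and held 2.20% to 2.37% of counts in the controls and 2.33%, 6.67% and 14.6% in dTAG replicates 1, 2 and 3. The build mm10 and the tools featureCounts, STAR 2.7.2b, limma and edgeR are named per the submitters' processing notes. No source used here gives their settings, the annotation or the use of strand, so reads of a gene and of an overlapping or antisense neighbour cannot be separated. Per the labels' protocols, ERCC RNA was added before library preparation, and the libraries are called stranded and ribosomal RNA depleted while a messenger RNA kit is named. Samples and table columns were placed by their titles, 6 of 89 samples, and the other 83 are not analysed here.

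CPM are counts per 1000000 counts in genes with a symbol. The main test was the two-sided quasi-likelihood test of edgeR 4.0.16 under R 4.3.3 (group only, TMM scaling, filterByExpr with minimum count 10 and minimum total count 15), fitted on all genes with Benjamini-Hochberg adjustment at 0.05. TMM factors were 0.789, 0.727 and 0.734 in controls, against 0.774, 1.23 and 2.49 with dTAG. The F statistic and fold change together gave each standard error. Ratios per library are of CPM + 1. Shares per library were tested with two-sided exact permutation tests in scipy 1.17.1, adjusted within the 5 complexes and the 10 isoform shares, and the p-values of the summed share and the ratio are unadjusted. Each pair of libraries differed by at least 9.49 in chi-square per gene, so no library was a copy of another. Alternatives were RLE scaling, library totals, no filter, a filter of 1 CPM, DESeq2 1.42.0, limma-voom 3.58.1, a replicate block, other denominators of the summed share and leaving out libraries. The scripts were tested on simulated data with less spread between libraries than these, which does not show how many changes the fits could find here.

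The members, lists, tests and markers were chosen with earlier results of these data known. Named genes were the isoform families, the 2 members with the highest and the tested one with the lowest control CPM per complex, Cox7a2l, Atp5s and Ndufa4, the 3 tested members with the smallest p in each direction, the extremes in dTAG replicate 1, and the 2 most abundant of each other list. Others, such as Ndufb2, Ndufb5, Ndufa13, Ndufb7, Ndufb9, Sdhd, Atp5j2, Cyc1, Nrf1 and the Ppargc1 genes, were named after their values were seen. RefSeq positions matched 81 members by symbol and 2 by synonym. The values of 2 genes that the rule names are not reported here. Levels are not compared between genes, because transcript lengths were not used here.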

Additional observations from a re-analysis of the deposited data

How the results depend on the processing

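Members called lower numbered 0 under every alternative except without dTAG replicate 1, where they were 70 (leaving out each library in turn, 0 to 70), and members called higher numbered 1 with DESeq2 and 0 to 1 with each library left out. The members' median relative to all genes ran from -3.05 to -0.58 with each library left out. Complex medians ran likewise from -2.91 to -0.58 for complex I, -2.53 to -0.47 for II, -3.26 to -0.63 for III, -3.17 to -0.59 for IV and -3.06 to -0.58 for V. Without a filter and with DESeq2 they were -2.04 and -2.25 for complex I and -1.90 and -2.09 for complex II, and without dTAG replicates 2 and 3 they were -0.0663 and 0.0271. These relative medians also moved with the reference, since the tested genes differed between fits. Without control replicate 1, 2 or 3 the members' own median was -1.08, -1.04 and -1.03, against -1.02 over 6 libraries. The median of all tested genes was then 0.52, 0.54 and 0.56, against 0.16. Without a filter and with DESeq2 the members' own median was -1.06 and -1.04, and that of all genes 1.02 and 1.24. Differences in shares changed sign on leaving out 1 library: complex I ranged from -0.145 to 9.10, complex V from -8.13 to 1.03, Cox7a1 from -0.548 to 8.54 and Atp5g2 from -3.15 to 4.60 percentage points.

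Whether the replicate numbers pair the samples could not be decided here. Deviations from the group means correlated at 0.05, -0.02 and 0.03 across genes between same-numbered libraries. Not every library correlated best with its own number. The dTAG group means include replicates 2 and 3, which stood apart, so these deviations can neither show nor exclude pairing. With a replicate block 0 of 80 members were called and their relative median was -1.84, and 13 genes in all were called higher.

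Of the named genes tested over 6 libraries, 25 passed the test without dTAG replicate 1 and 0 did under the other alternatives, and 21 values changed sign. Atp5s changed sign without a filter (-0.25), with DESeq2 (-0.0404), with limma-voom (-0.37), without control replicate 2 (-0.59), without dTAG replicate 2 (-0.12) or 3 (-0.49), a range of -0.59 to 0.13 with each library left out, and without dTAG replicates 2 and 3 (-1.30). Cox4i2 changed sign with limma-voom (-0.45), without control replicate 2 (-0.0141), without dTAG replicate 2 (-0.0134), a range of -0.0141 to 0.64 with each library left out, and without dTAG replicates 2 and 3 (-1.55). Without dTAG replicates 2 and 3 the fold change was above 0 for Atp5g1 (0.10), Cox6a1 (0.22), Cox6b2 (0.0496), Cox6c (0.0769), Cox7a2l (0.14), Cox7b (0.0553), Ndufa2 (0.34), Sdha (0.0508), Sdhb (0.0354) and Uqcrc2 (0.27). Apart from the libraries left out, the cause of these changes was not tested. Depth limits dTAG replicates 2 and 3, where members held medians of 71 and 22 counts.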

Other observations

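Some assembly factors and regulators, chosen here after their values were seen, were higher in dTAG replicates 2 and 3 than in any control. In CPM, 63.4% and 72.3% of all tested genes lay above every control in these libraries. Ndufaf1, a complex I assembly factor, stood at 14.7, 10.9 and 8.87 CPM in the controls, against 5.97, 26.3 and 67.9 CPM with dTAG. Surf1, a complex IV assembly factor, stood at 8.14, 4.02 and 5.61 CPM in the controls, against 4.88, 16.0 and 42.5 CPM with dTAG. Polrmt, the mitochondrial RNA polymerase, stood at 22.4, 18.3 and 25.2 CPM in the controls, against 28.4, 59.6 and 180 CPM with dTAG. In dTAG replicate 1 these 3 genes lay below, within and above the control range, respectively. None passed the test over 6 libraries (edgeR adjusted p = 0.609, 0.447 and 0.215). Receptor genes and markers of other tissues were also most often detected in dTAG replicate 3, and their part in these values was not tested.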
